A study of Homo sapiens with 4 samples.

Results

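The genes described here are 30 genes of cholesterol and fatty acid synthesis, measured in HCT116 human colon cancer cells. They were taken as every probe whose gene name on the array was one of the 30, which gave 48 of the 41000 different probes and 30 of the 30982 gene names. The 30 genes were 18 enzymes of sterol synthesis, 4 genes of sterol regulation and transport, and 8 enzymes of fatty acid and lipid synthesis. HCT116 cells carried a vector expressing a short hairpin RNA (shRNA) against N-BLR, a primate-specific long non-coding RNA, as clone #3-1 or clone #4-7, or an empty vector. Each clone was hybridised in duplicate with empty vector RNA on 2-colour Agilent whole-genome arrays, 4 arrays in all, to ask how gene expression differed from the empty vector cells. Each shRNA line was a clone with 2 arrays, and the labels call its replicates biological without saying which cultures they came from, so that p-values measured only the spread between these arrays. The methods describe the clones as transfected and selected, whereas the labels speak of lentivirus.

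Cholesterol is made from acetyl-CoA through mevalonate, farnesyl diphosphate, squalene and lanosterol. Fatty acids are made from the same acetyl-CoA through malonyl-CoA, and are then elongated, desaturated and built into glycerides. Both routes are under the sterol regulatory element-binding proteins, the products of SREBF1 and SREBF2, which INSIG1 and INSIG2 keep in the endoplasmic reticulum when sterols are plentiful. SREBF2 is best known for the sterol route and SREBF1 for the fatty acid route, and genes of both are expressed in proliferating epithelial cancer cells.

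All 30 genes had a probe well above background in both dyes on all 4 arrays, and each gene was read by its brightest probe. Between 68.5% and 72.6% of the probe spots of an array were well above background in either dye. The arrays of a clone correlated at 0.953 and 0.956, and with 2 arrays a clone every value has limited precision. All arrays lay on 1 slide, so no slide effect could be fitted, and the place of an array on the slide cannot be told apart from its clone. Of 9 colon epithelial markers 7 were well above background in both dyes on all arrays, the exceptions being CDX1 and VIL1. Of 8 fibroblast, 7 leukocyte and 5 endothelial markers, 2, 6 and 1 were above background on all arrays in both dyes, and the leukocyte marker PTPRC and the endothelial marker PECAM1 were not. The summed Cy5 intensity of the leukocyte list was 4409 to 4435 on the clone #3-1 arrays and 4566 to 4792 on the clone #4-7 arrays. That of the epithelial list was 370185 to 385405 over all arrays. In Cy3 the sums over all arrays were 3814 to 5117 for the leukocyte list and 388340 to 603878 for the epithelial list. The part of the leukocyte list in the results was not tested. No probe was named for N-BLR, so the knockdown could not be read.

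The dyes have to be described before any direction is given. By the labels, Cy5 marks the RNA of the shRNA clone on every array and Cy3 that of the empty vector cells, no array having the dyes swapped, and every ratio here is Cy5 over Cy3 on the log2 scale. This direction opposed the one the study gives for the clones. E-cadherin (CDH1), the cell adhesion protein of epithelia, had log2 ratios of -2.61 and -2.59 on the clone #3-1 arrays and -1.37 and -1.32 on the clone #4-7 arrays. Vimentin (VIM), an intermediate filament protein of mesenchymal cells, had 4.46 and 4.44, and 2.39 and 2.38. The level of each dye was also read alone, a comparison chosen after the data were seen. For VIM the Cy5 level was 14.20, 14.19, 14.20 and 14.18 on the 4 arrays, whereas the Cy3 level was 9.74 and 9.75 on the clone #3-1 arrays and 11.81 and 11.80 on the clone #4-7 arrays.

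Over all probes, the Cy5 level differed between the arrays of the clones for 38 of 41000 (0.0927%), and the Cy3 level for 7505 (18.3%), at an unadjusted p under 0.001 in limma, the threshold of the study's methods and the one meant by "called" throughout. Among probes well above background in both dyes, the difference between the clones had an SD of 0.13 in Cy5 and 0.46 in Cy3. The channel labelled as the clone was therefore the more alike between the clones, and the channel labelled as the empty vector was the one that differed. This goes against the labels, which put the same kind of control RNA in Cy3 on all 4 arrays. The labels' direction is kept below, and samples are named by their labels. If Cy3 held the clone RNA and Cy5 the control, each sign of a log2 ratio would turn, and clone #3-1 would have the higher level of most of these genes and clone #4-7 the lower. From arrays of these clones the study itself reports E-cadherin among the genes most raised and vimentin among those most lowered. It also measured both genes in the clones by qRT-PCR and immunofluorescence, which were not analysed here. All of these give the direction that the labels' ratios oppose.

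In the 30 genes the same contrast between the dyes was seen. None of the 30 was called for a Cy5 difference between the arrays of the clones, and 1, MVD, reached an unadjusted p under 0.05 in limma, with a difference of 0.15 (adjusted p = 0.68). The Cy5 differences lay between -0.12 and 0.15, with a median of 0.04. In Cy3, 25 of the 30 were called, against 18.3% of all probes, and all 25 were higher on the clone #3-1 arrays. The median Cy3 difference of the 30 genes was 1.09, and the range was -0.19 to 2.55. The 25 genes were 16 of 18 sterol enzymes, 3 of 4 regulators and 6 of 8 fatty acid enzymes. Without normalization between arrays 11 of the 30 were called for Cy3, with a median difference of 0.94, and the median in Cy5 was -0.07.

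**Figure D1:**
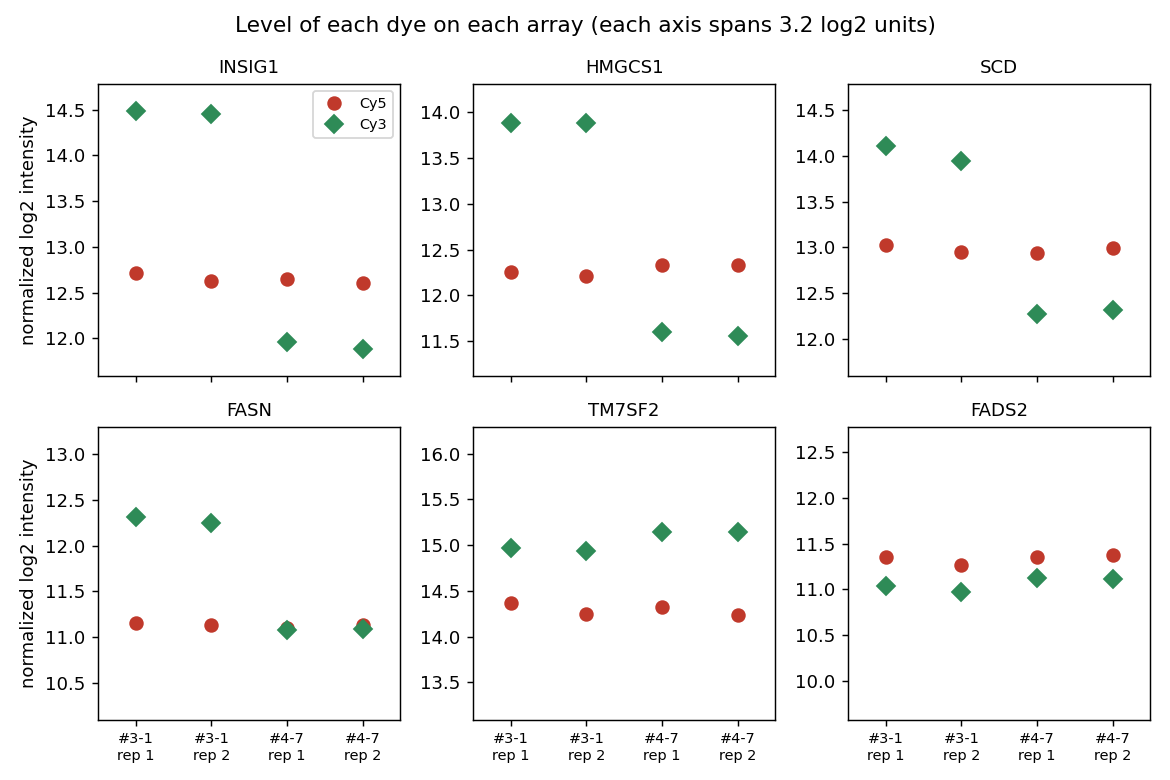
Normalized log2 intensity of each dye on each of the 4 arrays for 6 genes, with Cy5 as circles and Cy3 as diamonds and 1 point per array. Cy5 stayed nearly level across the arrays of each gene, and Cy3 of INSIG1 went from 14.49 and 14.45 on the clone #3-1 arrays to 11.96 and 11.88 on the clone #4-7 arrays, while TM7SF2 and FADS2 showed no such step.

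**Figure D2:**
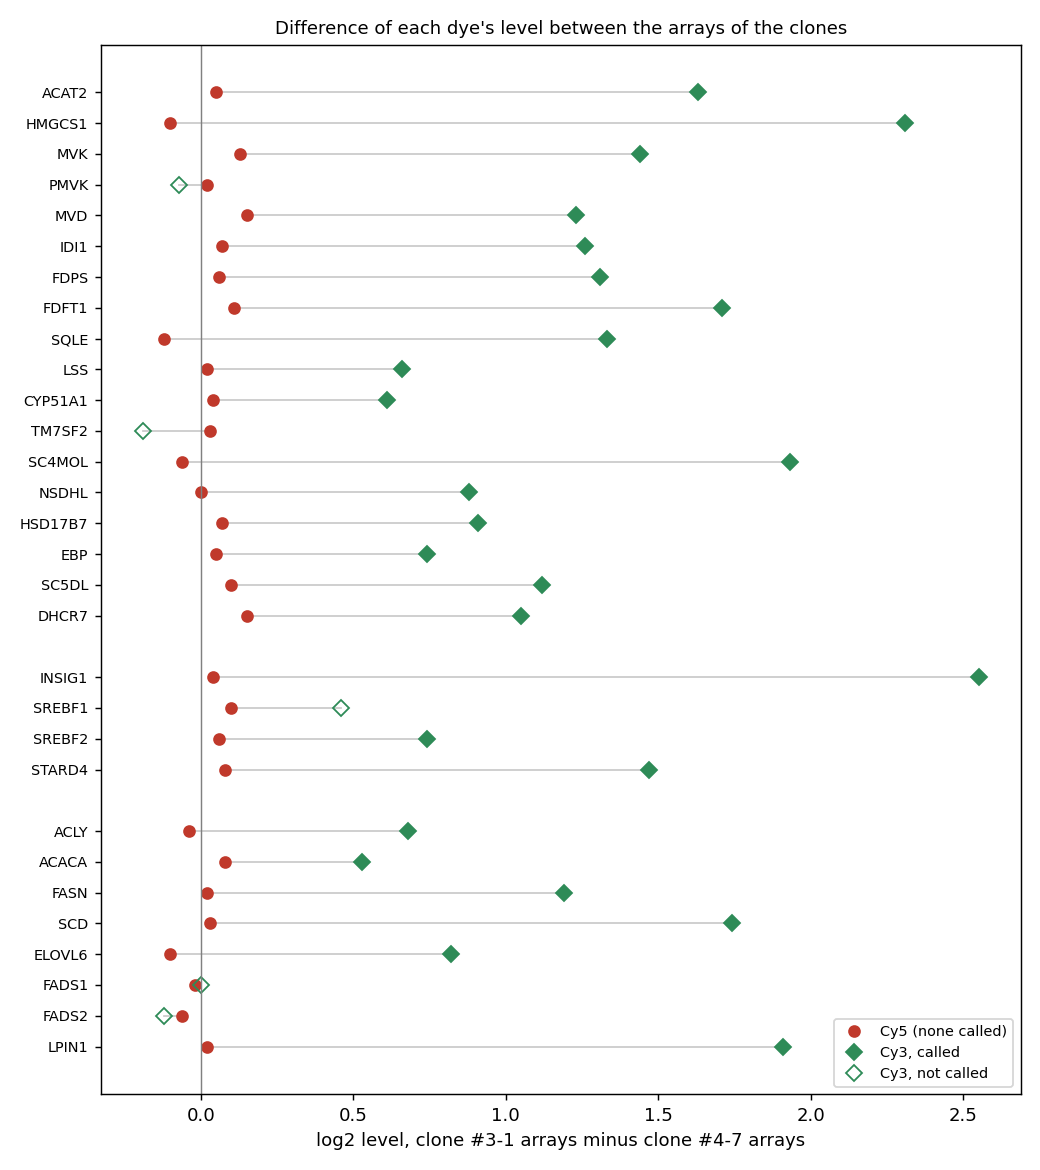
Difference of the log2 level of each dye between the clone #3-1 arrays and the clone #4-7 arrays for the 30 genes, 2 arrays a clone, grouped as sterol enzymes, regulators, and fatty acid and lipid enzymes. Cy5 differences (circles) lay between -0.12 and 0.15, and Cy3 differences (diamonds, filled where called) reached 2.55.

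As ratios, the 30 genes lay on opposite sides of 0 in the clones. On the clone #3-1 arrays 28 were called below 0, against 16.4% of all probes, 1 was called above 0, against 16.3%, and 1 was not called. On the clone #4-7 arrays 17 were called above 0, against 16.1%, 2 were called below 0, against 15.0%, and 11 were not called. With plain background subtraction 11 were called above 0 in clone #4-7, and 4 were called below 0 there with only probes well above background, with an intensity trend or at an adjusted p under 0.05. Either sign was called for 32.7% of all probes in clone #3-1 and 31.1% in clone #4-7. Among probes well above background, as all 30 were, the shares were 24.0% above 0 and 23.8% below 0 for clone #3-1, and 23.6% above 0 and 21.9% below 0 for clone #4-7. The median log2 ratio of the 30 was -0.66 in clone #3-1 and 0.27 in clone #4-7, beside 0.01 over all probes in each. Calls of opposite sign in the clones were made for 16 of the 30, against 3.59% of all probes. The difference of the log2 ratios, clone #3-1 minus clone #4-7, was called for 26 of the 30, against 22.6% of all probes and 33.2% of those well above background, and all 26 were lower in clone #3-1, the direction called for 11.6% of all probes. The comparisons of both clones used empty vector RNA as labelled control.

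**Figure D3:**
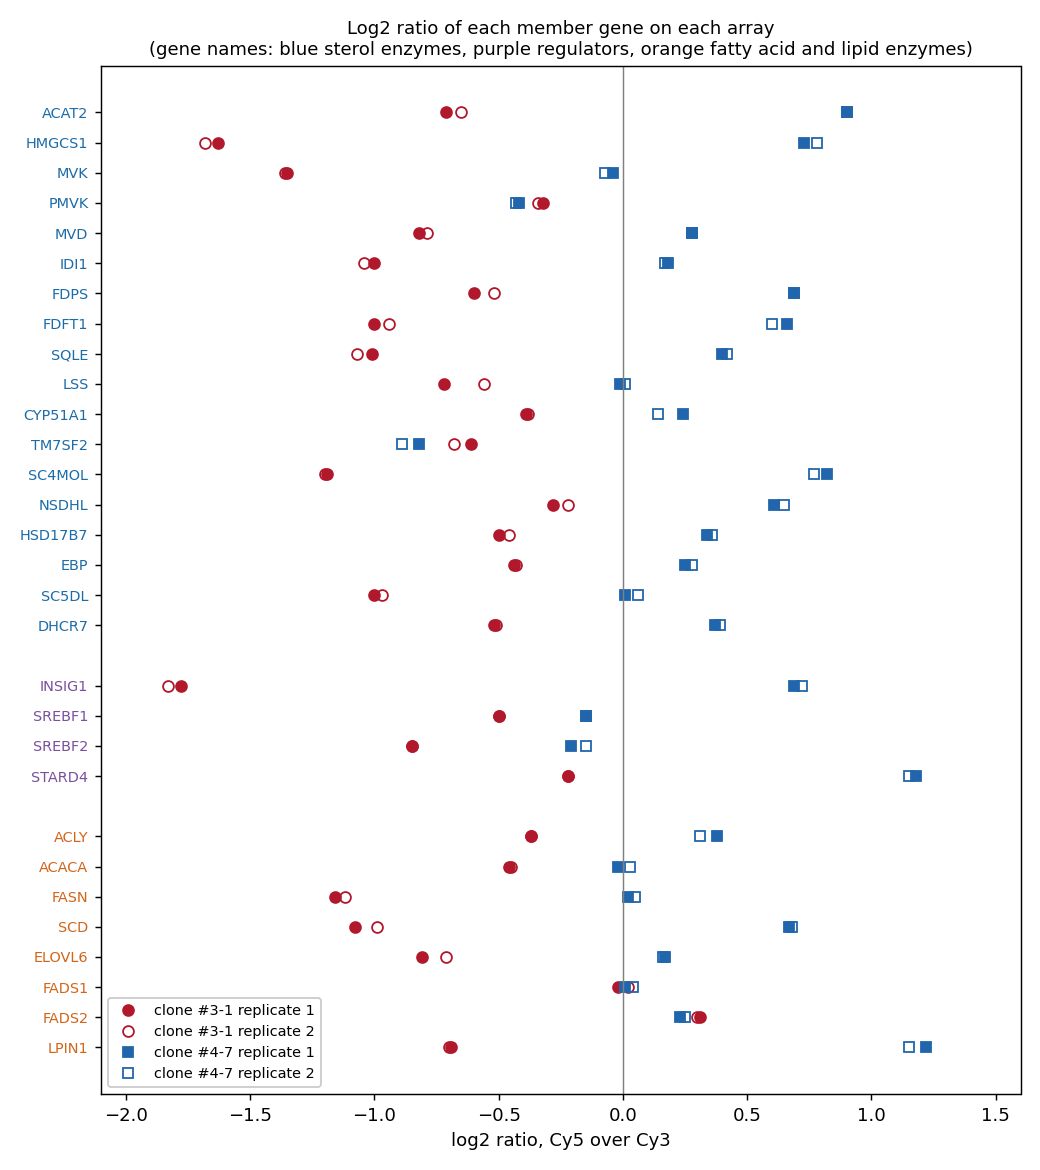
Log2 ratio, Cy5 over Cy3, of the 30 genes on each array, with circles for clone #3-1 and squares for clone #4-7 (filled, replicate 1; open, replicate 2). The arrays of the clones do not overlap for the 26 genes called for the difference, nor for PMVK, TM7SF2 and FADS2, which were not called. The share of all probes without overlap was not counted. Ratios lie on the same side of 0 in both clones for PMVK, TM7SF2, MVK, SREBF1, SREBF2 and FADS2.

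In the upper part of the sterol route, from acetyl-CoA to mevalonate, the largest ratio belonged to HMGCS1, which makes HMG-CoA and was read by a probe at chr5:43325874-43325933 (hg17). Its log2 ratio was -1.63 and -1.68 on the clone #3-1 arrays and 0.73 and 0.78 on the clone #4-7 arrays, or 3.15-fold lower and 1.69-fold higher in Cy5 than in Cy3 (limma, adjusted p = 1.1e-05 and 5.3e-05). The Cy5 level was 12.25, 12.21, 12.33 and 12.33 on the 4 arrays, and the Cy3 level 13.88, 13.88, 11.60 and 11.55. Cy3 thus separated the clones by 2.31, and Cy5 by -0.10 (limma, adjusted p = 3.2e-05 and 0.68). The other HMGCS1 probe had -1.08 and -1.09, and 1.24 and 1.25. ACAT2, the cytosolic thiolase that joins acetyl-CoA units ahead of HMGCS1, had -0.71 and -0.65, and 0.90 on both clone #4-7 arrays.

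The enzymes from mevalonate to farnesyl diphosphate did not all behave alike. MVK, which phosphorylates mevalonate, had -1.35 and -1.36 on the clone #3-1 arrays, and -0.04 and -0.07 on the clone #4-7 arrays, where it was not called (adjusted p = 0.17 in limma). PMVK, the kinase that follows it, had -0.32 and -0.34, and -0.42 and -0.43. PMVK was called below 0 in both clones, as were 7.64% of all probes, and the difference between the clones, 0.09 (95% interval -0.01 to 0.19), was not called. MVD, which makes isopentenyl diphosphate by decarboxylation, had -0.82 and -0.79, and 0.28 on both clone #4-7 arrays. IDI1, the isomerase of that product, had -1.0 and -1.04, and 0.18 and 0.17. FDPS, which builds farnesyl diphosphate, had -0.60 and -0.52, and 0.69 on both clone #4-7 arrays. Calls for the difference between the clones were made for MVK, MVD, IDI1 and FDPS, against 22.6% of all probes and 33.2% of those well above background.

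The next enzymes carry farnesyl diphosphate to lanosterol. FDFT1, squalene synthase, had -1.0 and -0.94 on the clone #3-1 arrays, and 0.66 and 0.60 on the clone #4-7 arrays. SQLE, which oxidises squalene and is a rate-limiting enzyme of the later route, had -1.01 and -1.07, and 0.40 and 0.42. LSS, which closes the ring to lanosterol, had -0.72 and -0.56, and -0.01 and 0.01. The LSS value depended on the probe. Its brightest probe was not called on the clone #4-7 arrays, whereas a pair of overlapping probes elsewhere in the gene had mean ratios of -1.64 and -1.48 in clone #3-1, and 0.26 and 0.36, both called, in clone #4-7. The remaining LSS probe had -0.79 and -0.02.

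Of the enzymes that turn lanosterol into cholesterol, SC4MOL, the sterol methyl oxidase now named MSMO1, stood farthest from 0 in clone #3-1 by the brightest probes. It had -1.19 and -1.20, and 0.82 and 0.77, whereas its other probe had -0.83 and -0.65, and 0.44 and 0.38. By the brightest probe its Cy3 level fell from 10.92 and 11.01 on the clone #3-1 arrays to 9.07 and 9.0 on the clone #4-7 arrays. NSDHL and HSD17B7, which act in the same removal of methyl groups, had smaller ratios, -0.28 and -0.22 with 0.61 and 0.65, and -0.50 and -0.46 with 0.34 and 0.36. CYP51A1, the lanosterol demethylase, had -0.39 and -0.38, and 0.24 and 0.14, the latter not called (adjusted p = 0.0076 in limma). EBP, the sterol isomerase, had -0.44 and -0.43, and 0.25 and 0.28. SC5DL, the sterol desaturase now named SC5D, had -1.0 and -0.97, and 0.01 and 0.06, so that like MVK it was called in clone #3-1 alone. DHCR7, which completes cholesterol, had -0.52 and -0.51, and 0.37 and 0.39. All 7 of these genes were called for the difference between the clones, against 22.6% of all probes and 33.2% of those well above background.

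TM7SF2, a sterol reductase of the same stretch, was the exception. Its log2 ratio was -0.61 and -0.68 on the clone #3-1 arrays, and -0.82 and -0.89 on the clone #4-7 arrays, called below 0 in both (limma, adjusted p = 9.4e-05 and 5.3e-05). The difference between the clones was 0.21 (95% interval 0.08 to 0.34, adjusted p = 0.023 in limma) and was not called. The other TM7SF2 probe had -0.57 and -0.58, and -0.70 on both clone #4-7 arrays. Cy3 was above Cy5 on every array for TM7SF2, 14.97, 14.94, 15.14 and 15.14 against 14.37, 14.25, 14.32 and 14.24.

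In all, 18 of 18 sterol enzymes were called below 0 in clone #3-1, against 23.8% of all probes well above background. In clone #4-7, 11 were called above 0, against 23.6%, 2 (PMVK and TM7SF2) below 0, against 21.9%, and 5 were not called. The difference between the clones was called for 16 of the 18, against 33.2%.

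Among the regulators, INSIG1, read at chr7:154537719-154537778 (hg17), had the largest ratio of the 30 genes in clone #3-1. Its log2 ratio was -1.78 and -1.83 on the clone #3-1 arrays and 0.69 and 0.72 on the clone #4-7 arrays, or 3.48-fold lower and 1.63-fold higher in Cy5 than in Cy3 (limma, adjusted p = 8.5e-06 and 5.7e-05). The Cy5 level was 12.71, 12.63, 12.65 and 12.60, and the Cy3 level 14.49, 14.45, 11.96 and 11.88, a Cy3 difference of 2.55. STARD4, which carries cholesterol between membranes, had its larger ratio in the other clone, with -0.22 on both clone #3-1 arrays, and 1.18 and 1.15 on the clone #4-7 arrays. SREBF2 had -0.85 on both clone #3-1 arrays, and -0.21 and -0.15 on the clone #4-7 arrays. SREBF1 had -0.50 on both clone #3-1 arrays and -0.15 on both clone #4-7 arrays. Neither SREBF1 nor SREBF2 was called in clone #4-7 (adjusted p = 0.0074 and 0.0051 in limma), whereas the other SREBF1 probe, with -0.90 and -0.88, and -0.52 and -0.46, was called in both clones. The ratios of both SREBF genes were thus below 0 on all 4 arrays, unlike those of INSIG1 and STARD4. Their Cy3 differences were 0.74 for SREBF2, which was called, and 0.46 for SREBF1, which was not (adjusted p = 0.0058 in limma).

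Of the 8 fatty acid and lipid enzymes, 3 were called with opposite signs in the clones. ACLY, which makes cytosolic acetyl-CoA from citrate, had -0.37 on both clone #3-1 arrays, and 0.38 and 0.31 on the clone #4-7 arrays. ACACA, which carboxylates it to malonyl-CoA, had -0.46 and -0.45, and -0.02 and 0.03. FASN, the synthase of palmitate, had -1.16 and -1.12 on the clone #3-1 arrays, and 0.02 and 0.05 on the clone #4-7 arrays, so that it was 2.21-fold lower in Cy5 than in Cy3 in clone #3-1 (limma, adjusted p = 1.6e-05) and not called in clone #4-7 (adjusted p = 0.4). Cy3 of FASN was 12.31 and 12.25 on the clone #3-1 arrays, and at 11.08 and 11.09 on the clone #4-7 arrays it equalled Cy5 to within 0.05.

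SCD, the desaturase that makes oleate, had -1.08 and -0.99, and 0.67 and 0.68, with Cy3 levels of 14.11, 13.94, 12.27 and 12.31. Its other probes had means of -1.0 and -0.89 in clone #3-1, and 0.33 and 0.14 in clone #4-7. ELOVL6, which elongates palmitate, had -0.81 and -0.71, and 0.17 and 0.16, the latter not called (adjusted p = 0.013 in limma). LPIN1, the phosphatidate phosphatase that supplies diacylglycerol, had -0.69 and -0.70, and 1.22 and 1.15. By the brightest probes this was the highest ratio of the 30 genes in clone #4-7, although the other HMGCS1 probe had 1.24 and 1.25 there. A different LPIN1 probe had means of -0.73 and 0.17, and was well above background in Cy3 on 3 of the 4 arrays. ACLY, ACACA, FASN, SCD, ELOVL6 and LPIN1 were called for the difference between the clones, against 22.6% of all probes and 33.2% of those well above background.

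The desaturases of polyunsaturated fatty acids stood apart from the rest. FADS2 had 0.31 and 0.30 on the clone #3-1 arrays, and 0.23 and 0.25 on the clone #4-7 arrays, called above 0 in both clones, as were 7.78% of all probes. It was the only one of the 30 called above 0 in clone #3-1, and it was not called there when either clone #3-1 array was left out, with a normexp offset of 0, or with plain background subtraction. The other FADS2 probe, with means of 0.15 and 0.13, was called in neither clone. FADS1 had -0.02 and 0.02, and 0.01 and 0.04, and was called in neither clone. The other FADS1 probe had 0.84 on clone #3-1 replicate 1 against -0.41 on clone #3-1 replicate 2, and -0.48 and -0.46 on the clone #4-7 arrays. Its clone #3-1 mean of 0.21 thus rested on 1 array. On that array its levels were 8.54 in Cy5 and 7.70 in Cy3, against 12.78 to 12.79 and 13.20 to 13.27 on the others. This probe was called in neither clone, and that array also enters the FADS1 difference taken as the mean of its probes. The difference between the clones was 0.06 (95% interval -0.04 to 0.17) for FADS2 and -0.02 (95% interval -0.13 to 0.08) for FADS1.

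ACACA is a case where the probes of a gene gave different answers, and their sequences show that they read different parts of the transcript. Both are 60-base oligos with at least 1 reading frame free of stop codons. The first, at chr17:32761350-32761409 (hg17), is the brighter and had a mean of 0.01 in clone #4-7. The second spans chr17:32518487-32520044 (hg17), longer than the oligo itself, and had 0.47 and 0.40 on the clone #4-7 arrays, which was called. In clone #3-1 they gave -0.45 and -0.43.
ACACA brighter probe: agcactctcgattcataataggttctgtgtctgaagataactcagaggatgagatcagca
ACACA other probe: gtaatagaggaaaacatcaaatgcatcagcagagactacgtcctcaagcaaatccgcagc

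Compared by the medians of the whole groups, the sterol enzymes lay farther from 0 than the fatty acid enzymes in both clones. The median log2 ratio of the 18 sterol enzymes was -0.72 and -0.67 on the clone #3-1 arrays, and 0.31 and 0.32 on the clone #4-7 arrays. That of the 8 fatty acid and lipid enzymes was -0.57 on both clone #3-1 arrays, and 0.20 and 0.21 on the clone #4-7 arrays. The sterol median minus the fatty acid median was -0.12 ± 0.03 (SD, n = 2) in clone #3-1 and 0.11 ± 0.00 (SD, n = 2) in clone #4-7, beside a median of 0.01 over all probes on every array. With the processed signals of the scanner software the clone #3-1 value was -0.08. The 8 fatty acid and lipid enzymes include FADS1 and FADS2, with means of 0.00 and 0.30 in clone #3-1. The other 6 lay between -1.14 and -0.37 there. The order of the medians in clone #3-1 therefore depended on counting FADS1 and FADS2. In Cy3 the median difference between the clones was 1.18 for the sterol enzymes and 0.75 for the fatty acid enzymes, and in Cy5 it was 0.05 and -0.00. By the brightest probes the groups overlapped gene by gene. FASN and SCD lay among the sterol enzymes, and PMVK and TM7SF2 lay outside the direction of their group. LPIN1 lay among the sterol enzymes in clone #3-1 and above all of them in clone #4-7, where its other probe had a mean of 0.17. No test was made of these medians, because genes are not replicates. Of the fatty acid enzymes 6 of 8 were called below 0 in clone #3-1 and 1 above 0, against 23.8% and 24.0% of all probes well above background. In clone #4-7, 4 of 8 were called above 0 and 0 below 0, against 23.6% and 21.9%. For the difference 6 of 8 were called, against 33.2%.

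**Figure D4:**
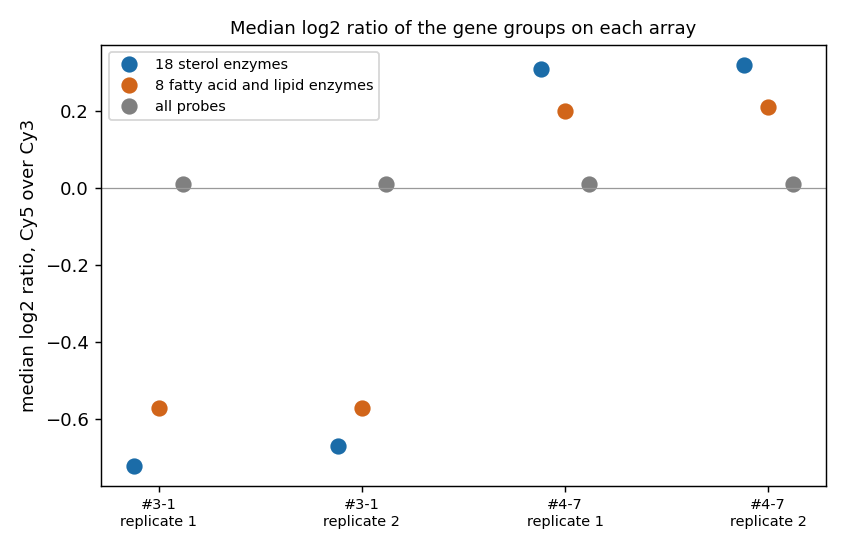
Median log2 ratio, Cy5 over Cy3, of the 18 sterol enzymes, the 8 fatty acid and lipid enzymes and all probes on each of the 4 arrays. The sterol medians were -0.72, -0.67, 0.31 and 0.32, the fatty acid medians -0.57, -0.57, 0.20 and 0.21, and all probes lay at 0.01.

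Other genes of the same pathways were counted from lists, to be read against the shares of all probes called: 16.4% below 0 and 16.3% above 0 in clone #3-1, 15.0% below 0 and 16.1% above 0 in clone #4-7, and 22.6% for the difference. Of 8 other sterol synthesis genes, 4 were called below 0 and 1 above 0 in clone #3-1, 5 above 0 and 0 below 0 in clone #4-7, and 6 for the difference. None had calls of 1 sign in both clones. Of 21 other genes of sterol sensing, uptake and export, 13 were called below 0 and 3 above 0 in clone #3-1, 9 below 0 and 6 above 0 in clone #4-7, and 11 for the difference. INSIG2, the homologue of INSIG1, had means of -0.65 and 0.86, and was named after its values were seen. MYLIP, a ubiquitin ligase and liver X receptor target, ran differently, with -0.30 and -1.05, and its Cy3 level was 8.96, 9.01, 9.66 and 9.76, higher on the clone #4-7 arrays. The other MYLIP probe had -0.23 and -0.53. NR1H3, a liver X receptor itself, had -0.57 and -0.28, and STARD5, a sterol carrier, had -0.48 in both clones, and its dimmer probe -0.13 and -0.18, called in neither. ABCA1, the cholesterol exporter, was not well above background in Cy5 on any array, so no ratio is given. It is nevertheless among the genes counted as called below 0 in both clones. SOAT1 was counted below 0 in clone #3-1 at -0.24, whereas its other probe had 0.44 and 0.28, called above 0 in both clones.

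Of 30 measured among 33 other genes of fatty acid and glyceride synthesis, 12 were called below 0 and 5 above 0 in clone #3-1, 10 above 0 and 5 below 0 in clone #4-7, and 19 for the difference, of which 16 were lower in clone #3-1. The 5 above 0 in clone #3-1 and the 5 below 0 in clone #4-7 were near those shares. The median of this list was -0.06 in clone #3-1 and 0.05 in clone #4-7, nearer to 0 than that of the 8 fatty acid enzymes above. Among those called with the same sign in both clones, MLXIPL, the carbohydrate-response transcription factor, had -1.34 and -0.64, ELOVL7, an elongase, -0.65 and -0.29, and AGPAT1, an acyltransferase, -0.32 and -0.44. ACSL5, a fatty acid CoA ligase, had 0.67 and 0.51. The probes of MLXIPL disagreed, since 1 of its other probes had -1.16 and -0.49, but a further probe, well above background on all arrays, had 0.28, called above 0, in clone #3-1 and -0.27, called below 0, in clone #4-7. The other ELOVL7 probe had -0.31, called, and 0.08, not called. AGPAT4, another acyltransferase, had the lowest ratio of the list in clone #3-1 and was named after its value was seen, with -2.78 in clone #3-1 and 0.01 in clone #4-7. A different AGPAT4 probe, well above background on all arrays, had -1.70 and -0.40, called below 0 in both clones, and its dimmest probe had -0.73 and 0.12. By the brightest probe, the Cy3 level was 13.79, 13.75, 10.70 and 10.66, and the Cy5 level 11.0, 10.99, 10.72 and 10.66.

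**Figure D5:**
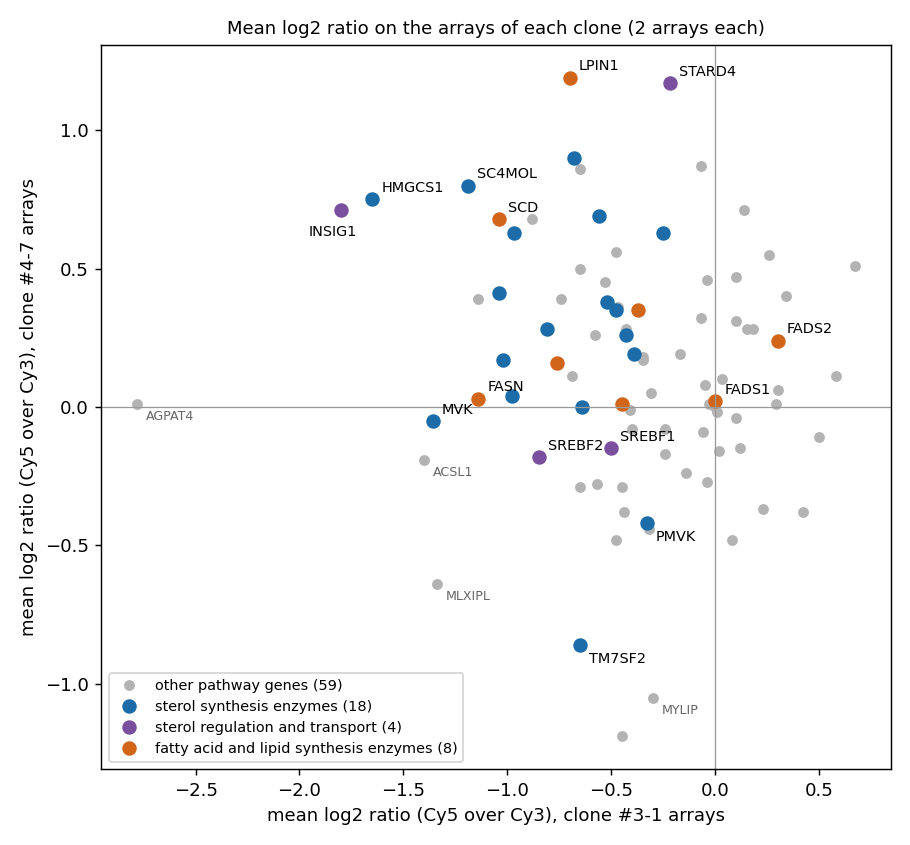
Mean log2 ratio, Cy5 over Cy3, in clone #3-1 (x axis) against clone #4-7 (y axis), 2 arrays each, with the 30 genes in colour and 59 other pathway genes in grey. Most coloured points lie at the upper left, below 0 in clone #3-1 and above 0 in clone #4-7, with PMVK, TM7SF2, SREBF1, SREBF2 and, at -0.05 in clone #4-7, MVK below 0 on both axes, LSS at 0 in clone #4-7, and FADS2 above 0 on both.

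Promoter sequences are shown because most of these genes had ratios of opposite sign in the clones and are known as targets of the same factors, whose best-known binding site is the sterol response element, often beside a CCAAT box bound by NF-Y. RefSeq windows of 300 bases (GRCh38.p14), 250 of them before the start, were held for 26 of the 30 genes, with SQLE, FDFT1, ACAT2 and FASN having none here. On either strand the core TCACNCCAC was in 1.13% of 35116 windows and, of the 26 genes, in SREBF2 only. Only this exact core was sought, so variants of it and sites outside the windows would be missed. The lack of a match therefore does not show that a gene has no sterol response element. The letters CCAAT, on either strand, were in 34.6% of windows and 39.7% of gene symbols. They were in 20 of the 26 genes: 13 of 15 sterol enzymes, 3 of 4 regulators and 4 of 7 fatty acid enzymes. Counted as windows, 24 of 37 (64.9%) held CCAAT. These motifs do not overlap each other's letters, a match is a description only, and the genes were not chosen independently of earlier results. The stretches below, of 80 bases each, end before the start of transcription, with matches to either motif in capitals (ATTGG is CCAAT on the other strand). INSIG1, HMGCS1, SC4MOL and SCD are shown for their large ratios of opposite sign in the clones, and SREBF2 for its match to the core. TM7SF2 is shown because it holds the letters CCAAT but had ratios below 0 in both clones.
SREBF2, chr22:41832932-41833011, plus strand: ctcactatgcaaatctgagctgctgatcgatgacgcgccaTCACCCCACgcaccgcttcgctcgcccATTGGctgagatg
INSIG1, chr7:155297668-155297747, plus strand: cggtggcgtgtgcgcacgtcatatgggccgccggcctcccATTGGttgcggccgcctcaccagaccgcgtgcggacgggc
HMGCS1, chr5:43313473-43313552, minus strand: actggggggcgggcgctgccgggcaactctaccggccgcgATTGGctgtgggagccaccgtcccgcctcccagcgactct
SC4MOL, chr4:165327589-165327668, plus strand: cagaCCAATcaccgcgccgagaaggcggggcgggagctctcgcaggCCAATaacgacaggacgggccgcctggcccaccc
SCD, chr10:100347007-100347086, plus strand: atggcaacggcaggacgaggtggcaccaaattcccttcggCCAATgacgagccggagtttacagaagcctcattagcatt
TM7SF2, chr11:65111758-65111837, plus strand: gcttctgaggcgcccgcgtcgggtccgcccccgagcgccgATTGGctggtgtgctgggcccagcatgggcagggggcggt
The core match of SREBF2 began 133 bases before the start and its CCAAT box 106 bases before it. The CCAAT box nearest to the start began 170 bases before it in INSIG1, 100 in HMGCS1, 34 in SC4MOL, 186 in SCD and 74 in TM7SF2.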

How the data were processed

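RNA of HCT116 cells with shRNA clone #3-1 or #4-7 (labelled Cy5) and with empty vector (labelled Cy3) was hybridised to 2-colour Agilent arrays, 2 arrays per clone. The deposited files hold, per spot, mean and background intensity of both dyes as read by Agilent Feature Extraction (version 8.5.1.1 per the submitters' processing notes, 9.5.3.1 per the file headers), processed signals corrected by that software for background and dye bias, and flags. The deposited value table holds log10 ratios of the authors, centred at 0, which matched the scanner files' log10 ratio to within 0.005 and are on the same scale and direction. Coordinates are those of hg17. Mean intensities were background-corrected with normexp (offset 50), control spots were dropped, arrays were loess-normalized within and quantile-normalized between, spots of a probe were averaged, and a model with a term per clone was fitted in limma 3.58.1 (R 4.3.3) over all 41000 probes. A call was an unadjusted p under 0.001, following the study's methods, with Benjamini-Hochberg adjusted p over all probes beside it. The script was tested on simulated data. The brightest probe stood for a gene. Of the 30 genes, 15 had more than 1 probe.

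The members and lists were chosen with earlier results of these data known. By the rule for named genes, all 30 members were accounted for. Values on every array were given for members called with the same sign in both clones, for those called for the difference, and for HMGCS1, SREBF1, SREBF2, INSIG1, FASN and SCD. Of each other list, at most the 4 genes farthest from 0 among those called with the same sign in both clones were named, and CDH1 and VIM were given for direction. ABCA1, named by that rule, has no ratio. The alternatives tried were 15 settings, and each dye alone was added after the data were seen.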

Additional observations from a re-analysis of the deposited data

Results flagged for a closer look

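The log2 ratio differed between the clones by the test of the difference (clone #3-1 minus clone #4-7) for 26 of the 30 genes. The share was 22.6% over all probes and 33.2% over those well above background. Each value of the 26 is given here. The largest were -2.51 for INSIG1 and -2.41 for HMGCS1, both genes that sterols repress. Other sterol enzymes of the difference were SC4MOL at -1.99, FDFT1 at -1.60, ACAT2 at -1.58, SQLE at -1.45 and MVK at -1.30. FDPS had -1.25, IDI1 -1.19, MVD -1.08 and SC5DL -1.02. The differences of the remaining sterol enzymes were -0.90 for DHCR7, -0.88 for NSDHL, -0.83 for HSD17B7, -0.70 for EBP, -0.64 for LSS and -0.57 for CYP51A1. Of the regulators, STARD4 had -1.39, SREBF2 -0.67 and SREBF1 -0.36. Among the fatty acid and lipid enzymes LPIN1 had -1.89, SCD -1.71 and FASN -1.17, followed by ELOVL6 at -0.93, ACLY at -0.72 and ACACA at -0.46. Of these 26 genes, 25 were called for a difference in Cy3, the channel that the labels give to the empty vector, and SREBF1, with 0.46, was not; none was called in Cy5, where the differences of the 30 genes lay between -0.12 and 0.15. Without normalization between arrays 11 of the 30 were called in Cy3. With the sign turned, the same 26 genes would be higher in clone #3-1 than in clone #4-7. Groups of 2 arrays were too small to look for single arrays that stood apart.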

How the results depend on the processing

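Over 15 alternatives the 30 genes' ratios and differences kept direction and side of the threshold in 1232 of 1350 values, 85 were no longer called, 20 were newly called, and 13 that were not called changed sign. Genes called above 0 in clone #3-1 went from 1 to 0 with a normexp offset of 0 and with plain background subtraction, and genes called above 0 in clone #4-7 from 17 to 11 with the latter. Genes called below 0 in clone #4-7 went from 2 to 4 with only probes well above background, with an intensity trend, and at an adjusted p under 0.05. The sterol minus fatty acid median in clone #4-7 was 0.12 with offset 0, plain subtraction and the mean of the probes, 0.10 with processed signals and the authors' table, 0.11 with median centring and 0.09 without normalization between arrays; in clone #3-1 it was -0.08 with processed signals. Genes called for Cy3 went from 25 to 11 without normalization between arrays. The cause was not tested. Leaving out an array gave 0 to 1 genes above 0 and 23 to 26 below 0 in clone #3-1, 12 to 16 above 0 and 2 below 0 in clone #4-7, 23 to 25 for the difference, 0 for Cy5, 24 to 25 for Cy3, and medians of -0.14 to -0.09 and of 0.11. The lone array of a clone was then assumed to vary like the other clone's.

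Values that were not called and changed sign were ACACA in clone #4-7 (-0.01 in the authors' table and from processed signals, -0.05 without normalization between arrays, -0.02 without clone #4-7 replicate 2), FADS1 in clone #4-7 (-0.01 without normalization between arrays, -0.22 as the mean of its probes), the FADS1 difference (0.00, 0.03 and 0.33 with the authors' table, without that normalization and as the mean), FADS1 in clone #3-1 (-0.02 to 0.02 over the arrays left out, -0.02 without clone #3-1 replicate 2), MVK (0.01) and LSS (0.15) in clone #4-7 as the mean of probes, and LSS there (0.01) without clone #4-7 replicate 1.

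With the replicate number as a block, 1 gene was called above 0 and 27 below 0 in clone #3-1, 16 above 0 and 2 below 0 in clone #4-7, 26 for the difference, 0 for Cy5 and 24 for Cy3. Same-numbered arrays did not deviate together in their ratios (r = -0.0132 across probes, which are not independent replicates). An effect common to both dyes cancels in a ratio, so this cannot show whether same-numbered arrays shared a preparation.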
